A study of Homo sapiens with 2 samples.

Results

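The genes described are 7 mucins of the airway surface, taken by name, out of 58051 annotated genes counted in the series: MUC5AC and MUC5B, which are secreted, and MUC1, MUC4, MUC13, MUC16 and MUC20, which are bound to the membrane. All 7 matched an identifier, 6 had at least 1 read in either library, and only MUC4 reached the minimum of 100 reads summed over both libraries that the tables of all genes use. RNA came from BEAS-2B, a human bronchial epithelial line immortalised in culture, made to overexpress the cation channel TRPV3 (labelled TRPV3-OE, passage 4 to 8), and from the parental line (genotype WT, passage 20 to 30), with 1 library each. Cells of either kind were untreated, grew in LHC-9 medium on a collagen and fibronectin coat and were frozen at confluence. How the overexpressing line was made, and whether it is 1 clone, is not given in the sources used here. Passage and TRPV3 differ together and cannot be told apart.

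Mucins are large proteins whose stretches rich in serine, threonine and proline carry dense O-linked sugars. MUC5AC and MUC5B form the mucus gel: their ends are cysteine-rich and link the chains into polymers, which goblet cells and submucosal glands store in granules and release. The membrane-bound mucins pass the membrane near their carboxyl end and form the glycocalyx of cilia and microvilli. The short tail of MUC1 takes part in signalling at the cell surface. MUC13 is best known from the gut epithelium, and MUC20 from the kidney.

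The TRPV3-OE library held 17477953 counted reads and the parental library 17450658. Levels are counts per 1000000 reads (CPM) after TMM scaling, and ratios are TRPV3-OE over parental. Both carry exact 95% intervals, which cover counting error only. They take reads as independent, while reads copied by PCR are not independent molecules, so they may be too narrow even for counting error. Since each line gave a single library, the spread between cultures is unknown, differences have no replicate check and no p-value is printed. TRPV3 had 54077 reads in the TRPV3-OE library and 26 in the parental library. The epithelial label was checked on EPCAM (4743 reads in TRPV3-OE and 3116 in parental cells), CDH1 (7875 in TRPV3-OE and 8063 in parental cells) and KRT5 (17827 in TRPV3-OE and 22652 in parental cells), and all were abundant in both. Bulk RNA cannot tell fewer expressing cells from less RNA per cell.

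The coding sequences show what makes these genes mucins and where reads are hard to place. Below is, for 5 of them, the most frequent unit of the tandem repeat in the longest coding transcript of GENCODE 29 (GRCh38), written 5′ to 3′ on the coding strand, with capitals marking the codons for serine and threonine, the residues that receive O-linked sugars.
MUC4: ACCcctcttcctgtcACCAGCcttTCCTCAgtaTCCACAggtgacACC
MUC1: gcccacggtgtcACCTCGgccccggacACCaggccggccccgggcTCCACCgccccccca
MUC5AC: TCTgcccctACAACCAGCACAACC
MUC5B: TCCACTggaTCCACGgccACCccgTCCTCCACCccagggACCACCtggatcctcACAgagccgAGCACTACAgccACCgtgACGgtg
MUC20: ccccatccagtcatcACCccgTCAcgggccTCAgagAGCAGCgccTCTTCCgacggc
The MUC4 unit of 48 bases (chr3:195788034-195788081, minus strand, exon 2) has 8 serine or threonine codons among 16 and occurs letter for letter 14 times. The MUC1 unit of 60 bases (chr1:155191820-155191879, minus strand, exon 2) has 5 among 20 and occurs 19 times. The MUC5AC unit of 24 bases (chr11:1185121-1185144, plus strand, exon 31) has 6 among 8 and occurs 14 times. The MUC5B unit of 87 bases (chr11:1244222-1244308, plus strand, exon 31) has 16 among 29, and the MUC20 unit of 57 bases (chr3:195725150-195725206, plus strand, exon 2) has 7 among 19.

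Repeats of this kind took up 69.7% of the coding sequence of MUC1 and 60.8% of that of MUC4, against 33.3% in MUC20, 27.7% in MUC5AC and 7.14% in MUC5B. In MUC16 the repeat found was a long one of 468 bases, and in MUC13 a short stretch of 159 bases. Over the whole coding sequence, serine and threonine codons made up between 24.0% (MUC13) and 38.3% (MUC4), where the median of 19065 protein-coding genes was 12.9%. In MUC5AC they made up 67.8% of codons inside the repeat and 22.7% outside it, whereas in MUC1 the shares were 25.5% and 27.6%.

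Of all 50-base stretches in the transcript, 42.4% in MUC1, 28.3% in MUC4, 29.6% in MUC5B and 21.8% in MUC5AC occurred more than once in it or lay in another gene too. Reads that align to several places are not in the counts under the settings in the file headers, so the levels of these genes may be too low; the read length is not given in the sources used here. MUC20 was the most affected, with 70.3% of its stretches also found in another gene, chiefly its pseudogene copy MUC20P1 and the overlapping noncoding gene MUC20-OT1. MUC20-OT1 also shares 42.8% of the exon bases of MUC20 on the same strand, where reads count for neither gene, so the count of MUC20 is uncertain.

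MUC4 (ENSG00000145113, chromosome 3, 195746765 to 195812277, minus strand, GRCh38), a long membrane mucin that binds the receptor ERBB2, had 14 reads in the TRPV3-OE library and 422 in the parental library. Its level was 0.786 CPM (0.430 to 1.32) in TRPV3-OE cells and 24.6 CPM (22.3 to 27.1) in parental cells, 31.3-fold lower (18.5 to 57.8) with a log2 ratio of -4.97 (-5.85 to -4.21). The intervals of the libraries lie far apart. Among the 11466 genes with at least 100 summed reads, only 24 had a lower log2 ratio. A gene counts as called where its ratio passes 2-fold and its interval lies wholly on that side of 1. MUC4 was called lower, and since it alone reached the minimum, no other member could be called in either direction. Of all genes with at least 100 summed reads 5.35% were called lower and 5.31% higher. Among protein-coding genes alone these shares were 5.31% and 5.04%, 10.4% together. A minimum of 20 reads also let in MUC1 and MUC5AC, and one of 1 read let in 6 members in all. In both settings MUC4 was still the 1 member called lower, beside 6.76% and 4.9% of genes.

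MUC1 (ENSG00000185499, chromosome 1, 155185824 to 155192916, minus strand), a membrane mucin of most glandular epithelia, had 68 reads in the TRPV3-OE library and 23 in the parental library. That is 3.82 CPM (2.97 to 4.84) in TRPV3-OE cells and 1.34 CPM (0.851 to 2.01) in parental cells, 2.84-fold higher with a log2 ratio of 1.51 (0.81 to 2.26). The counting intervals of the 2 levels do not overlap. With 91 summed reads MUC1 lay just under the minimum of 100. With a minimum of 20 reads it was the 1 member called higher, beside 7.85% of the 13931 genes then tested.

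MUC5AC (ENSG00000215182, chromosome 11, 1157953 to 1201138, plus strand), the gel-forming mucin of surface goblet cells, had 15 reads in the TRPV3-OE library and 5 in the parental library, a log2 ratio of 1.53 (-0.0045 to 3.34) whose interval just reached 0. MUC5B (ENSG00000117983, chromosome 11, 1223066 to 1262172, plus strand), the gel-forming mucin of glands and club cells, had 11 reads in the TRPV3-OE library and 1 in the parental library. Its log2 ratio was 3.40 (0.62 to 8.83), and with no minimum beyond 1 read it was called higher along with MUC1, beside 5.89% of 22863 genes. Together the secreted pair had 26 reads in TRPV3-OE cells and 6 in parental cells. Reads were few for either gene in both libraries, at under 1 CPM.

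The other 3 membrane mucins were near or at 0. MUC20 (ENSG00000176945, chromosome 3, 195720882 to 195741123, plus strand), reported to bind the MET receptor, had 5 reads in TRPV3-OE cells and 1 in parental cells, a log2 ratio of 2.27 whose interval (-0.89 to 7.83) held 0. MUC16 (ENSG00000181143, chromosome 19, 8848844 to 8981342, minus strand), the source of the CA125 antigen, had 0 reads in TRPV3-OE cells and 1 in parental cells. MUC13 (ENSG00000173702, chromosome 3, 124905442 to 124953819, minus strand) had 0 in either. The limit used for a count of 0 is 3 reads, 0.168 CPM in the TRPV3-OE library and 0.175 CPM in the parental library; the exact intervals of such a count end at 0.207 and 0.215 CPM in those libraries. No fold is given for MUC16 or MUC13, whose counts lie under that limit in both libraries.

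**Figure D1:**
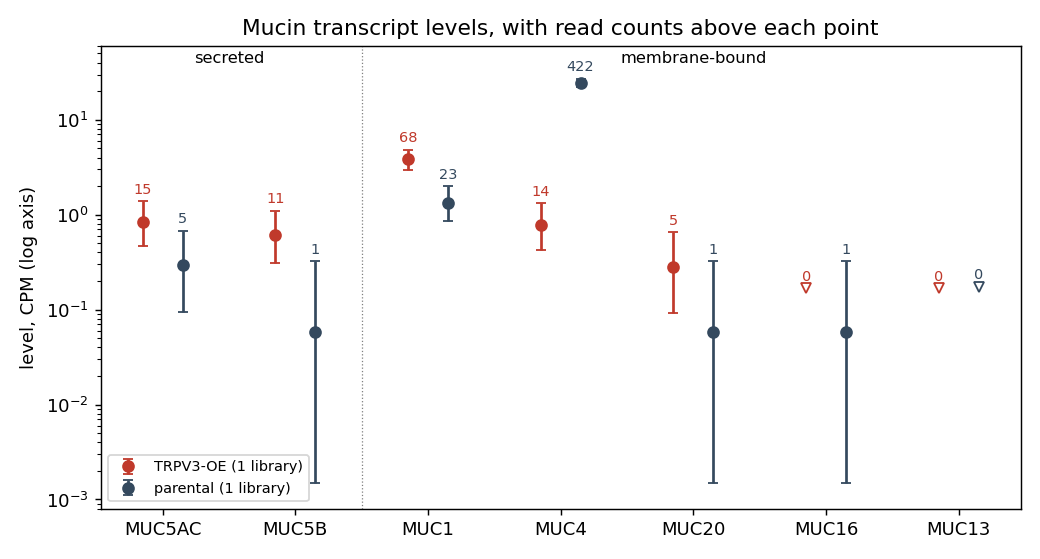
Level of each mucin in CPM on a log axis, in the TRPV3-OE library (red, left of each pair) and the parental library (dark, right), with exact 95% Poisson intervals, the read count above each point, and open triangles at the limit of 3 reads where no read was counted. MUC4 stands at 14 reads in TRPV3-OE and 422 in parental cells, while MUC1, MUC5AC, MUC5B and MUC20 have more reads in TRPV3-OE.

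The makeup of the mucin reads therefore differed, a comparison within each library that needs no scaling. The 7 genes held 113 reads in the TRPV3-OE library and 453 in the parental library. MUC1 took 60.2% of them in TRPV3-OE cells (50.5 to 69.3, exact Clopper-Pearson) and 5.08% in parental cells (3.25 to 7.52). MUC4 took 12.4% in TRPV3-OE cells (6.94 to 19.9) and 93.2% in parental cells (90.4 to 95.3). MUC5AC had 13.3% of the mucin reads in TRPV3-OE cells against 1.10% in parental cells, and MUC5B 9.73% against 0.221%. These shares move with MUC4, which fills the parental total. Taken without MUC4, a choice made after the values were seen, MUC1 held 68.7% of the remaining reads in TRPV3-OE cells (58.6 to 77.6) and 74.2% in parental cells (55.4 to 88.1). MUC5AC then held 15.2% in TRPV3-OE cells and 16.1% in parental cells, and MUC5B 11.1% in TRPV3-OE cells (5.68 to 19.0) and 3.23% in parental cells (0.0816 to 16.7). The intervals of the libraries overlap for each of these 3 genes. Without MUC4, the remaining 6 genes summed to 99 reads in TRPV3-OE cells and 31 in parental cells, a log2 ratio of 1.62 (1.02 to 2.25), while with it the sum was 4.17-fold lower in TRPV3-OE.

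**Figure D2:**
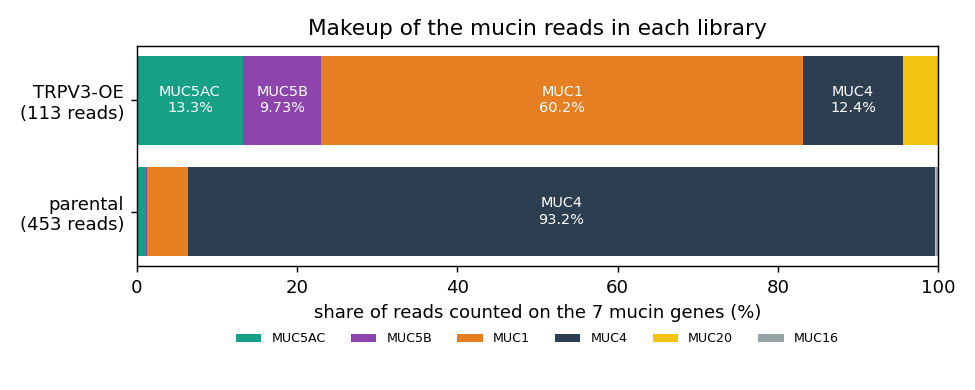
Share of the mucin reads on each gene, in percent of 113 reads in the TRPV3-OE library (upper bar) and of 453 reads in the parental library (lower bar). MUC1 holds 60.2% of the upper bar and MUC4 93.2% of the lower one.

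Dividing by kilobases of exon adjusts for length, but not for stretches where reads may be left uncounted, whose share differs between these genes. The order given here is therefore approximate. Per kilobase of exon MUC1 came first in TRPV3-OE cells at 0.810 CPM per kilobase (0.629 to 1.03). MUC20 (0.0661), MUC5AC (0.0483), MUC4 (0.0369) and MUC5B (0.0332) followed, and their intervals overlap. In parental cells MUC4 came first at 1.16 CPM per kilobase (1.05 to 1.27), followed by MUC1 at 0.285 (0.180 to 0.427), whose intervals do not overlap, and MUC5AC at 0.0167. MUC20, MUC5B and MUC16 lay below that with overlapping intervals. The level of MUC4 per kilobase exceeded that of 33.7% of protein-coding genes in TRPV3-OE cells and 48.7% in parental cells, counting genes without a read. Among protein-coding genes with at least 1 read in the library, it exceeded 6.79% in TRPV3-OE cells and 27.9% in parental cells. For MUC1 these last shares were 24.5% in TRPV3-OE cells and 18.2% in parental cells.

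Neighbouring genes were compared because stretches of chromosome can differ between the libraries as a whole. Over the 50 measured genes closest by position, the median log2 ratio was -0.05 around MUC4 and 0.13 around MUC1, so that the ratios relative to the neighbours were -4.92 and 1.38. MUC4 lies 5642 bases from MUC20 on chromosome 3. The nearest measured genes on its sides, the noncoding MUC20-OT1 (99 reads in TRPV3-OE and 97 in parental cells) and the kinase gene TNK2 (1036 reads in TRPV3-OE and 936 in parental cells), had log2 ratios of -0.03 and 0.09. The genes beside MUC4 thus lacked its low ratio. On the other side of MUC20, APOD lay 136677 bases away and had 177 reads in TRPV3-OE cells and 46 in parental cells. Its log2 ratio was 1.89 (1.41 to 2.39).

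MUC5AC and MUC5B lie in a cluster on the short arm of chromosome 11, where the median of the 50 nearest genes was -0.68. Relative to it their log2 ratios were 2.21 (0.67 to 4.02) and 4.08 (1.30 to 9.51), with counting error of the mucin alone. The flanking genes AP2A2, an adaptor of clathrin coats, and TOLLIP, an inhibitor of toll-like receptor signalling, had log2 ratios of -0.57 each, opposite in sign to both mucins. Before subtraction the interval of MUC5AC began at -0.0045, and MUC5B rested on few reads. Next to MUC1, TRIM46, a microtubule-organising protein of neurons, ends 853 bases away on the other strand and had 86 reads in TRPV3-OE cells and 21 in parental cells, a log2 ratio of 1.98 (1.28 to 2.74). THBS3, a thrombospondin gene on the other side of MUC1, had 104 reads in TRPV3-OE cells and 94 in parental cells.

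**Figure D3:**
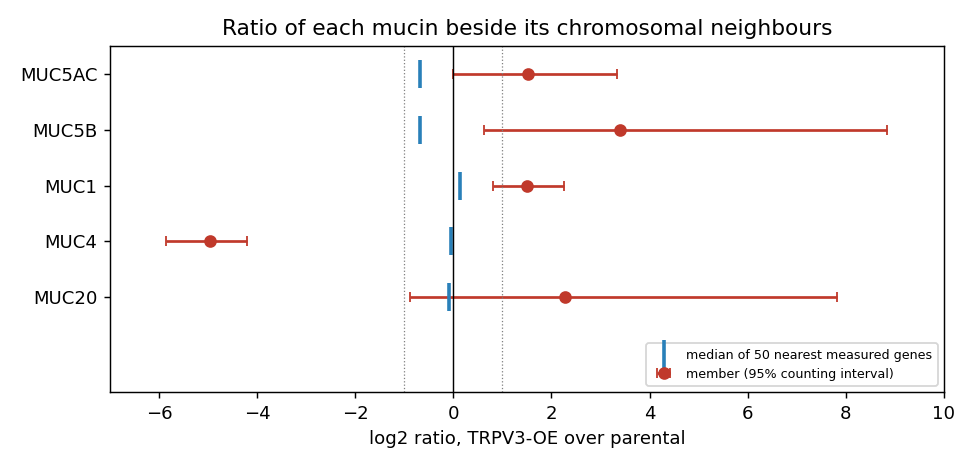
Log2 ratio, TRPV3-OE over parental, of the 5 mucins with more than 3 reads in either library (red points, exact 95% counting intervals), with the median of the 50 nearest measured genes (blue ticks); dotted lines mark 2-fold. MUC4 lies at -4.97 and MUC1 at 1.51, and the ticks at MUC5AC and MUC5B lie at -0.68.

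The closest genes to MUC4 in mean level and log2 ratio over the 2 libraries, by distance on the log2 scale among protein-coding genes, were RASA3, a RAS GTPase-activating protein (14 reads in TRPV3-OE and 326 in parental cells, distance 0.42), and the matrix glycoprotein gene THBS2 (23 reads in TRPV3-OE and 637 in parental cells, distance 0.67).

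Among 13 other mucin and mucin-like genes, 7 had no read in either library and 1 was measured with at least 100 reads. That was CD164, a sialomucin of lysosomes and the cell surface, with 5658 reads in TRPV3-OE cells and 4989 in parental cells, a log2 ratio of 0.13 (0.07 to 0.18). MUC2, the gel-forming mucin of the intestine, had 23 reads in TRPV3-OE cells and 19 in parental cells, and its interval (-0.72 to 1.18) held 0. OVGP1, the oviductal glycoprotein, had 46 reads in TRPV3-OE cells and 16 in parental cells (log2 ratio 1.47, 0.62 to 2.39). The median of the 50 genes nearest OVGP1 was 0.69.

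Enzymes that start mucin O-glycans by adding N-acetylgalactosamine to serine or threonine had a median near that of all genes. Of 9 measured members of the GALNT family 1 was called higher and 1 lower, beside 5.31% and 5.35% of all measured genes. Their median log2 ratio was -0.10, where the median over all measured genes was -0.03. GALNT18 had 107 reads in TRPV3-OE cells and 32 in parental cells (3.22-fold higher), and GALNT5 had 61 reads in TRPV3-OE and 206 in parental cells (3.51-fold lower). GALNT3, which glycosylates FGF23 among others, had a log2 ratio of 0.42, and GALNT7 one of -0.67, where its neighbours had a median of -0.69.

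Among enzymes that extend and cap the glycans 2 of 15 were called higher and 1 lower, beside 5.31% and 5.35% of all measured genes. Their median log2 ratio was 0.15. FUT3, the fucosyltransferase of Lewis antigens, had 88 reads in TRPV3-OE cells and 18 in parental cells, 4.70-fold higher. The sialyltransferase gene ST6GALNAC6 was 2.16-fold higher, and GCNT1, which makes the core 2 branch, 2.13-fold lower. Both fell short of 2-fold once the median of the 50 nearest genes was subtracted (0.75 and -0.90). ST3GAL4, a sialyltransferase, had a log2 ratio of -0.95.

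Transcription factors that act on mucin genes divided, with 2 of 17 called higher, 3 called lower and a median that rounds to 0.00. Of all measured genes 5.31% were called higher and 5.35% lower. SPDEF, the ETS factor of goblet cell differentiation, had 77 reads in TRPV3-OE cells and 175 in parental cells, 2.36-fold lower. ELF3, an epithelial ETS factor, had 2001 reads in TRPV3-OE cells and 622 in parental cells, 3.09-fold higher. ZEB1, a repressor of epithelial genes, had 1 read in TRPV3-OE cells and 116 in parental cells (log2 ratio -6.91, -12.23 to -4.41). NFKB1 was 2.68-fold lower, with a log2 ratio of -0.79 left after subtraction of its neighbours. FOXA2, which restrains goblet cell differentiation in mouse lung and was named after its value was seen, was 2.08-fold higher and likewise below 2-fold (0.50) relative to its neighbours.

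In the list of mucin folding, granule release and ion transport, 3 of 19 measured genes were called higher and 1 lower (median 0.09). The shares over all measured genes were 5.31% and 5.35%. AGR2, the protein disulphide isomerase that gel-forming mucins need in mouse gut and airway, had 4601 reads in TRPV3-OE cells and 601 in parental cells, 7.36-fold higher (log2 ratio 2.88, 2.76 to 3.01). ATP2C2, a calcium and manganese pump of the secretory pathway, had 312 reads in TRPV3-OE cells and 44 in parental cells, 6.82-fold higher. SCIN, an actin-severing protein, was 2.13-fold higher. UNC13D, a priming factor of granule exocytosis, had 69 reads in TRPV3-OE cells and 210 in parental cells, 3.16-fold lower.

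Of 20 measured genes in the list of signals that induce mucins, 5 were called lower and 1 higher (median -0.09). Beside these stand 5.35% of all measured genes called lower and 5.31% called higher. Interleukin 1 beta and alpha raise MUC5AC in airway cells; IL1B had 95 reads in TRPV3-OE cells and 1784 in parental cells (19.5-fold lower), and IL1A 129 reads in TRPV3-OE and 1938 in parental cells (15.6-fold lower). Among ligands of the EGF family, lower counts were found for NRG1 at 27 reads in TRPV3-OE cells and 205 in parental cells (7.89-fold) and HBEGF at 127 reads in TRPV3-OE and 366 in parental cells (log2 ratio -1.58). Others of the family, named after their values were seen, did not pass 2-fold: TGFA had 2159 reads in TRPV3-OE cells and 1519 in parental cells (log2 ratio 0.45, 0.36 to 0.55), and EREG 672 reads in TRPV3-OE cells and 923 in parental cells (-0.51). AREG, named after its value was seen, was 2.72-fold lower but at -0.74 relative to its neighbours. JAG1, a NOTCH ligand also named after its value was seen, was the 1 called higher at 2.02-fold and lay at 0.42 relative to its neighbours. EGFR, the receptor of HBEGF and AREG and also named afterwards, had 6832 reads in TRPV3-OE cells and 6063 in parental cells, a log2 ratio of 0.12.

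Partners and sheddases of membrane mucins had 0 of 18 measured members called higher and 4 called lower (median -0.21). Over all measured genes the shares were 5.31% and 5.35%. Mesothelin (MSLN), the binding partner of MUC16, had 261 reads in TRPV3-OE cells and 1680 in parental cells, 6.69-fold lower, although MUC16 itself had 0 reads in TRPV3-OE cells and 1 in parental cells. Moesin (MSN), which ties membrane proteins to actin, was 3.62-fold lower (1791 reads in TRPV3-OE and 6237 in parental cells), with a log2 ratio of -1.86, where its 50 neighbours had a median of -0.68. CD274, the checkpoint ligand PD-L1, was 3.26-fold lower (113 reads in TRPV3-OE and 354 in parental cells), and MMP14, a protease that can shed MUC1, 2.22-fold lower. The receptor partners of MUC4 and MUC20, named after their values were seen, were nearly level: ERBB2 had 1458 reads in TRPV3-OE cells and 1441 in parental cells (log2 ratio -0.04), and MET 3342 reads in TRPV3-OE and 3056 in parental cells (0.07).

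Secretory cell products were sparse. Of 19 listed genes 11 had no read in either library, among them the club cell secretoglobin SCGB1A1 and the trefoil peptide gene TFF1, and 3 were measured, 2 called higher and 0 lower (median 1.72). The antiprotease genes SLPI (748 reads in TRPV3-OE cells and 56 in parental cells, 12.8-fold) and WFDC2 (298 reads in TRPV3-OE and 87 in parental cells, 3.29-fold) were higher, and BPIFA2, a salivary and airway lipid-binding protein, had 66 reads in TRPV3-OE and 63 in parental cells. TFF3, which is packed with gel-forming mucins and was named after its value was seen, had 12 reads in TRPV3-OE cells and 1 in parental cells (log2 ratio 3.53, 0.77 to 8.95). Over the 8 pathway lists together, 11 of 101 measured genes were called higher (10.9%) and 15 lower (14.9%). Beside them stand 5.31% and 5.35% of all measured genes. The lists were chosen with earlier results of these data known, so these shares are no independent support for a change in the pathway.

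Markers of other cell types that could carry mucins or their regulators were mostly few in reads. Of the fibroblast list 2 of 9 were measured. COL1A1 had 285 reads in TRPV3-OE cells and 410 in parental cells (log2 ratio -0.58). FBLN1 was not sparse, with 1913 reads in TRPV3-OE cells and 1245 in parental cells (0.56). Only COL3A1 and LUM of that list had no read in either library. No read was found for 4 of 8 genes of the immune list, among them PTPRC and CD3E. The same held for 3 of 6 of the endothelial list, among them KDR. CD14 (460 reads in TRPV3-OE cells and 72 in parental cells) was the only immune gene measured, and CDH5 (35 reads in TRPV3-OE and 268 in parental cells) the only endothelial one. Of the alveolar list AGER (log2 ratio -0.05) and LAMP3 (88 reads in TRPV3-OE and 365 in parental cells) were measured. In that list 3 of 7 genes had no read, among them the surfactant gene SFTPC. The summed levels were 124 CPM in TRPV3-OE cells and 98.2 CPM in parental cells for the fibroblast list, 26.1 CPM in TRPV3-OE and 4.55 CPM in parental cells for the immune list, 3.26 CPM in TRPV3-OE and 16.7 CPM in parental cells for the endothelial list, and 14.5 CPM in TRPV3-OE and 31.4 CPM in parental cells for the alveolar list. The part of these genes in the mucin values was not tested.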

How the data were processed

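RNA sequencing gave 1 library per group; groups follow the genotype label. The deposited values are raw read counts per gene, made by the authors with featureCounts 1.5.0-p3 and Ensembl 87 gene models on GRCh38.p7, counting reads of the reverse strand, per the file headers. Those headers show no option for multi-mapping or overlapping reads, which by default are left out. STAR and DESeq2 are named in the submitters' processing notes. Library scaling used TMM (edgeR 4.0.16, R 4.3.3), and no model was fitted. Ratios carry exact conditional binomial intervals and levels exact Poisson intervals at 95%; 1 read is 0.0562 CPM in the TRPV3-OE and 0.0584 CPM in the parental library. Ratios take 0.5 in place of a count of 0.

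Symbols came from a gene name table (56948 of 58051 identifiers), and biotypes, transcripts and repeats from GENCODE 29. A tandem repeat is a stretch where at least 75% of a window of bases (60 or the period, if longer) recur 1 period on, at the shortest period covering at least 70% of what the best period covers, up to 600 bases. On counts simulated for 11466 genes with counting error alone, calls were made for 25 of 25 genes set 2.5-fold higher, for 24 of 25 set 2.5-fold lower and for 0 of 11266 left unchanged. The true ratio lay inside 95.3% of the intervals.

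Members and lists were chosen with earlier results of these data known. Named genes are TRPV3, the members and other mucins with at least 20 summed reads. From each list up to 4 measured genes with the largest absolute log2 ratio are named. Also named are the nearest measured gene on each side of each member except MUC13 and MUC16, and the 2 genes nearest to each measured member in level and ratio. Most later additions are marked. List genes named as having no read, such as SCGB1A1 and COL3A1, fall outside this rule and carry no mark. The same holds for FOXJ1 and for the epithelial genes EPCAM, CDH1 and KRT5 where the cell label was checked. Alternatives were other scalings (including DESeq2 1.42.0 size factors), thinning, neighbour subtraction, a prior count, and other minimums and fold limits. Python 3.11.15 with scipy 1.17.1 was used.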

Additional observations from a re-analysis of the deposited data

How the results depend on the processing

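The log2 ratio of MUC4 lay between -5.03 and -4.55 under the 7 alternatives run for it. Ratios of MUC4, MUC1, MUC5AC, MUC5B and MUC20 stayed inside their counting intervals in all 35 recomputed values. This is a weak check. The intervals of genes with few reads are wide (MUC20 -0.89 to 7.83), and the scalings move every gene by a small, shared amount. Thinning changes little because the library totals are nearly equal. With a prior count of 5 the log2 ratios of MUC5B and MUC20 were 1.36 and 0.68, since their reads are few. The interval of MUC5AC held 0 with TMM scaling (lower bound -0.0045) but not with scaling by total counts (0.05), DESeq2 size factors (0.04) or upper quartile (0.05). The number of members called higher was 0 where MUC4 alone met the minimum. It became 1 with a minimum of 20 reads and 2 with a minimum of 1. With a minimum of 500 no member was left, so that setting gave no value. The 11 higher and 15 lower genes of the pathway lists became 19 higher with a minimum of 1, 7 higher and 7 lower with a minimum of 500. A limit of 1.5-fold gave 19 higher and 24 lower, and one of 4-fold gave 4 higher and 5 lower; such limits change by construction how many genes pass. No scaling moved the median of all measured genes by more than 0.0582. No paired analysis was possible because the comparison rests on a single library of each line, which also means that none could be left out in turn. Depth limits all members but MUC4 and MUC1: at 5 to 15 reads the intervals span several log2 units.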

Other observations

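Markers of the basal cell, the progenitor of secretory cells in the airway, were lower as a list in the TRPV3-OE library, with 6 of 10 measured genes called lower and 0 higher, beside 5.35% and 5.31% of all measured genes, and a median log2 ratio of -1.12. This list too was chosen with earlier results of these data known. It summed to 3055 CPM in TRPV3-OE cells and 5571 CPM in parental cells. The hemidesmosome collagen COL17A1 (665 reads in TRPV3-OE cells and 2683 in parental cells), the laminin receptor subunit ITGA6 (1689 in TRPV3-OE and 5387 in parental cells), DLK2 (250 in TRPV3-OE and 671 in parental cells) and the caveolin gene CAV1 (8995 in TRPV3-OE and 22838 in parental cells) had the largest absolute ratios. The defining basal genes KRT5 and TP63 did not pass 2-fold (log2 ratios -0.40 and -0.41), and NGFR had 2282 reads in TRPV3-OE cells and 1793 in parental cells (0.29). The keratin gene KRT17, another basal marker, was called lower, with 6582 reads in TRPV3-OE cells and 12968 in parental cells. Its log2 ratio was -1.03, and -1.22 relative to its neighbours. KRT5, TP63, NGFR and KRT17 were named after their values were seen. Of the ciliated cell list, of which 1 gene matched no identifier, 3 of 12 were measured, the tubulin genes TUBA1A (39 reads in TRPV3-OE and 152 in parental cells, called lower) and TUBB4B (log2 ratio 0.29) and the dynein gene DNAH5 (0.65). FOXJ1, the master regulator of motile cilia, had 4 reads in TRPV3-OE cells and 0 in parental cells.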
